A study of Mus musculus with 10 samples.

Results

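The targeted Ikzf1 locus was examined in array comparative genomic hybridisation data of mouse BCR-ABL1 leukemias, through all 424 probes placed inside a 140 kb interval of chromosome 11, from the first probe's start to the last probe's end chr11:11560134-11699250 (mm9), of 402346 placed probes in all. Probes were taken by position alone, and the interval was chosen with earlier results of these data known. Of the 424 probes, 283 lay within the approximate span taken for Ikzf1 (first to last of these probes chr11:11585196-11672930), 73 before it and 68 after it. Which exon or intron each probe lies in is not given, because a gene annotation of this build was not used here. The study hybridised DNA of 5 Ikzf1+/+ and 5 Ikzf1+/- leukemias, 1 array per tumour, to ask which copy number changes accompany loss of an Ikzf1 allele. In every array the leukemic DNA, from GFP-positive bone marrow cells of the leukemic mice, carried Cy5, and DNA of stage-matched non-leukemic bone marrow carried Cy3 as the reference. The series' design text calls the reference DNA of normal B220-positive B cells. BCR-ABL1, the fusion kinase of Philadelphia chromosome leukemia, was common to all 10 tumours. The labels do not name the Ikzf1 allele, the genotype of the mice that gave the reference DNA, or whether replicates came from separate mice, so p-values measure the spread between these arrays.

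Ikzf1 encodes Ikaros, a zinc finger transcription factor that is needed for lymphocyte development and that restrains pre-B cell proliferation. Its N-terminal fingers bind DNA and its C-terminal fingers pair Ikaros with itself and with its relatives, so that a protein without the DNA-binding fingers can act against the intact ones. Deletions of IKZF1 are a frequent second lesion of human BCR-ABL1 acute lymphoblastic leukemia. Engineered mouse alleles include some that lack the exons of the DNA-binding fingers and some that lack the last coding exon, which encodes the dimerisation fingers.

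The locus was densely covered. Neighbouring probes lay 296 bp apart in the median, against 5343 bp on autosomes, and the widest stretch without a probe measured 2115 bp. Of the 424 probes, 407 were well above background and unsaturated on all 10 arrays and 17 were not. Runs of 5 consecutive probes, of which the interval held 420, spanned 1303 bp in the median. A removed part of about a kilobase was therefore covered by several probes in most of the interval, whereas a part shorter than the spacing could lie between probes. The noise of the arrays differed between genotypes: the SD over the interval's probe ratios was 0.229 ± 0.011 (SD over tumours, n = 5) in Ikzf1+/+ tumours and 0.192 ± 0.0045 in Ikzf1+/- tumours (two-sided exact permutation test, p = 0.00794, adjusted p = 0.0119 over 3 measures of signal and noise). The median Cy5 signal was 121 ± 33.9 in Ikzf1+/+ and 220 ± 10.1 in Ikzf1+/- arrays (exact permutation p = 0.00794, adjusted p = 0.0119), in the scanner's intensity units. The ratios of the Ikzf1+/+ tumours varied more and their Cy5 signals were dimmer. The part of either difference in the results below was not tested.

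In the tumour-to-reference ratio of the Ikzf1 locus, no difference between the genotypes passed the test. Values are log2 of Cy5 over Cy3, centred on the autosomal median of the array, so that 0 is the level of the autosomes. Ikzf1+/+ tumours 1 to 5 had interval means of 0.030, 0.0024, -0.015, -0.028 and 0.019. Ikzf1+/- tumours 1 to 5 had 0.023, -0.029, -0.0012, -0.0042 and -0.015. All 10 tumours lay close to 0 and the genotypes overlapped. The mean of the Ikzf1+/- tumours less that of the Ikzf1+/+ tumours came to -0.0069 (p = 0.619 by exact permutation, two-sided). Within the gene span alone the means were 0.0015 ± 0.020 (SD, n = 5) and 0.00037 ± 0.015, a difference of -0.0011 (exact permutation p = 0.952). Relative to the 418 probes within 500 kb on either side, the interval differed by 0.0019 between genotypes (exact permutation p = 0.857). The probes before the gene differed by -0.0030 (exact permutation p = 0.905). The 68 probes after the gene differed most, with means of 0.028 ± 0.017 and -0.0077 ± 0.027. Their difference of -0.035 had an exact permutation p of 0.0397, with 3 of 5 Ikzf1+/- tumours below all Ikzf1+/+ tumours, and an adjusted p of 0.198 over these 5 comparisons, which did not pass.

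Chromosome X showed what a change of copy measures on these arrays. Ikzf1+/+ tumours 1 to 5 had median X ratios of 0.84, 0.94, 0.91, 0.93 and 0.92. The Ikzf1+/- tumours, in the same order, had 0.11, 0.094, 0.095, 0.14 and 0.13. The groups did not overlap, and the difference was -0.79 (exact permutation p = 0.00794, adjusted p = 0.0119 over 6 measures of X and Y). On Y the medians ran from -2.87 to -2.30 in Ikzf1+/+ tumours and from 0.050 to 0.095 in Ikzf1+/- tumours. The difference lay in the leukemic DNA. In the Cy5 signal alone X stood at -0.26 ± 0.032 in Ikzf1+/+ and -1.18 ± 0.010 in Ikzf1+/- arrays, while in the Cy3 signal alone it stood at -1.14 ± 0.013 and -1.15 ± 0.0059. In Cy5 alone Y stood at -3.64 ± 0.15 in Ikzf1+/+ and -1.16 ± 0.025 in Ikzf1+/- arrays, against -1.12 and -1.11 in Cy3. The sexes of the mice are not in the labels. The X and Y levels of the leukemic DNA split fully by genotype. Effects of sex and of genotype therefore cannot be told apart in the Cy5 signal or in the ratio. In Cy3 the X and Y levels of the arrays overlapped between the genotypes.

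**Figure D1:**
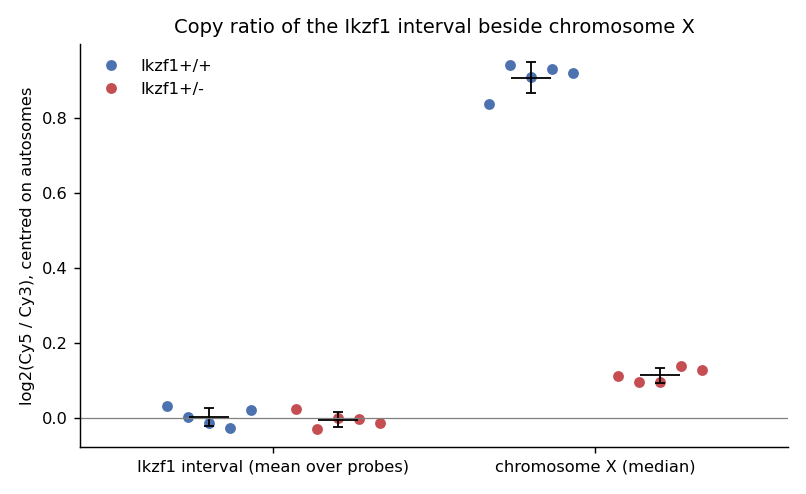
Centred log2 ratio of leukemic (Cy5) over non-leukemic (Cy3) DNA for each tumour, as the mean over the 424 Ikzf1 probes (left) and the median of chromosome X (right). Points are tumours, bars are the mean and SD of 5 tumours; the interval means lie between -0.029 and 0.030 in all 10 tumours, while the X medians separate by genotype.

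No probe of the locus and no run of probes showed a loss in the ratio that passed the test. In limma's fit over all 382486 autosomal probes with Benjamini-Hochberg adjustment, 0 of 424 probes passed, beside 0.0884% of autosomal probes (0.0178% higher and 0.0706% lower in Ikzf1+/-), and the smallest adjusted p was 0.0698. At an unadjusted p under 0.05 there were 28 probes (6.60%, beside 8.53% of autosomal probes), 14 of them lower in Ikzf1+/-. In the fit of all autosomal runs of 5 probes, 0 of 420 runs passed, beside 0.13% of autosomal runs (0.0301% higher and 0.1% lower), with a smallest adjusted p of 0.129. There were 30 runs at an unadjusted p under 0.05 (7.14%, beside 12.3% of autosomal runs), of which 24 were lower in Ikzf1+/-. All 5 Ikzf1+/- tumours lay below all 5 Ikzf1+/+ tumours at 8 probes (1.89%, beside 1.05% of autosomal probes) and above them at 3 probes (0.708%, beside 0.759%). For runs the counts were 8 below (1.90%, beside 1.5%) and 1 above (0.238%, beside 1.3%). Neighbouring runs share probes, so these runs are not independent of each other. With normexp background correction in place of the scanner's processed signals, 4 probes and 5 runs passed limma with Benjamini-Hochberg adjustment, all of them higher in Ikzf1+/-. At an unadjusted p under 0.05 in limma, normexp gave 122 probes and 111 runs of the interval. With the slide as a random block, 1 probe passed, lower in Ikzf1+/-. The autosomal shares under normexp and under the random block are not given, so these counts cannot be set against a background.

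The size of a ratio loss common to the Ikzf1+/- tumours was bounded more tightly for runs than for single probes. Of the 420 runs, 0 had a difference at or below -0.5, against 97.7% of the runs on chromosome X and 0.0392% of autosomal runs. The lowest lower bound of a 95% limma interval over all runs was -0.32, so no interval reached -0.5 or the median X run difference of -0.80. Of the 424 single probes, 1 was at or below -0.5 (0.236%, beside 0.363% of autosomal probes and 87.5% of X probes). The 95% interval reached -1, the value of 1 copy against 2, at that 1 probe and the X median of -0.81 at 2 probes. A ratio loss of 1 copy common to all Ikzf1+/- tumours, over 5 or more consecutive probes, was thus outside these intervals everywhere in the locus. For single probes it was outside them nearly everywhere. The intervals are for differences of group means, so they do not bound a loss in only some of the tumours. Nor can the ratio show a loss that the reference DNA shares.

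**Figure D2:**
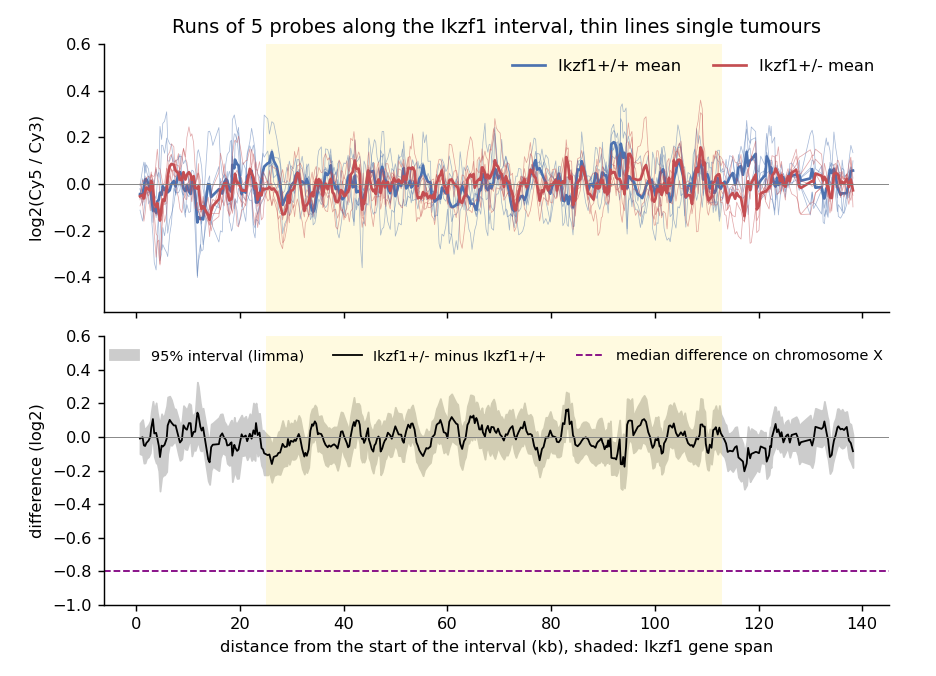
Mean log2 ratio of each run of 5 consecutive probes (top, thin lines are tumours and thick lines genotype means) and the difference between genotypes with its 95% interval (bottom), against distance from the start of the interval in kb. The difference stays between -0.20 and 0.17 throughout, above the dashed median difference of chromosome X runs at -0.80.

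The lowest single probe was chr11:11653983-11654027, inside the gene span. Ikzf1+/+ tumours 1 to 5 read 0.81, 0.55, 0.14, 1.48 and 0.22 there, and the Ikzf1+/- tumours -0.080, -0.13, 0.019, 0.12 and -0.27. The Ikzf1+/- tumours lay near 0, and the spread came from high values of the Ikzf1+/+ tumours. The difference was -0.71 (SE 0.19, limma adjusted p = 0.256). Next came chr11:11677046-11677105 after the gene at -0.49 (adjusted p = 0.142) and chr11:11652072-11652131 at -0.46 (adjusted p = 0.0698). The probes at 11586995 and 11578977 followed with -0.46 and -0.43, both with wide spread. The highest differences were 0.74 at 11572346, 0.59 at 11621135, 0.58 at 11654871, 0.47 at 11642755 and 0.38 at 11643373. Of these 5, only the probe at 11643373 was well above background on all arrays, and none passed limma.

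The lowest run, chr11:11676635-11677915, lay after the gene. The Ikzf1+/+ tumours measured 0.17, -0.011, 0.11, 0.13 and -0.056 and the Ikzf1+/- tumours -0.15, -0.11, -0.10, -0.16 and -0.16, a difference of -0.20 (95% interval -0.31 to -0.098). All Ikzf1+/- tumours lay below all Ikzf1+/+ tumours there, with a shift well short of the X difference. The other low runs were chr11:11653786-11654516 at -0.18 and chr11:11585196-11587054, at the edge of the gene span, at -0.16. The highest were chr11:11642755-11643869 at 0.17, chr11:11571114-11572405 at 0.15 and chr11:11624408-11625646 at 0.13.

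The second copy was examined tumour by tumour, since its loss could occur in 1 tumour only. Runs of 5 probes at or below -0.3 numbered 2, 1, 2, 3 and 2 of 420 across Ikzf1+/+ tumours 1 to 5. Across the Ikzf1+/- tumours they numbered 0, 2, 2, 0 and 0. On the autosomes such runs made up 1.79%, 1.21%, 0.59%, 0.792% and 1.2% of the runs of the Ikzf1+/+ tumours and 0.101%, 0.214%, 0.062%, 0.231% and 0.597% of those of the Ikzf1+/- tumours. Within the interval these runs made up 0.476%, 0.238%, 0.476%, 0.714% and 0.476% in the Ikzf1+/+ tumours and 0.476% in Ikzf1+/- tumours 2 and 3. The interval share lay below the tumour's autosomal share in all 5 Ikzf1+/+ tumours and above it in Ikzf1+/- tumours 2 and 3. The means of 2.0 ± 0.71 and 0.80 ± 1.1 differed by less than the test could call (exact permutation p = 0.127, adjusted p = 0.190 over 3 measures). Within the gene span the Ikzf1+/- tumours held 0 such runs, so those of tumours 2 and 3 lay outside it. With only probes well above background and unsaturated on all arrays, the counts were 0, 1, 0, 1 and 0 in Ikzf1+/+ and 0, 0, 0, 3 and 0 in Ikzf1+/- tumours, so that tumours 2 and 3 had none and the order of the means, 0.40 and 0.60, turned.

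The lowest run of each Ikzf1+/- tumour was -0.28, -0.35, -0.34, -0.28 and -0.25 in tumours 1 to 5. In the Ikzf1+/+ tumours it was -0.40, -0.36, -0.33, -0.39 and -0.37 in tumours 1 to 5. The genotypes overlapped, with 3 of 5 Ikzf1+/- tumours above all Ikzf1+/+ tumours, and the difference of 0.071 did not pass (exact permutation p = 0.0317, adjusted p = 0.0952 over 3 measures). The position was shared between tumours: Ikzf1+/- tumours 2 and 3 and Ikzf1+/+ tumour 3 all had their lowest run at chr11:11563906-11565195, Ikzf1+/- tumours 1 and 5 at chr11:11587555-11588842, and Ikzf1+/+ tumours 1 and 4 at chr11:11571114-11572405. Ikzf1+/- tumour 4 had its lowest run at chr11:11621986-11623687. Over runs of 20 probes the lowest means lay between -0.13 and -0.11 in the Ikzf1+/- tumours and between -0.16 and -0.077 in the Ikzf1+/+ tumours. No Ikzf1+/- tumour had a single probe of the interval at or below -1. On the autosomes such probes made up 0.020%, 0.042%, 0.015%, 0.031% and 0.066% in Ikzf1+/- tumours 1 to 5. With shares this small, their absence from the interval is not informative. Ikzf1+/+ tumours 1 to 4 had 1 such probe each (0.236% of the interval) and tumour 5 had 0. Autosomal shares in Ikzf1+/+ tumours 1 to 5 were 0.226%, 0.193%, 0.082%, 0.164% and 0.110%. The share of non-leukemic cells in each tumour sample is not given, so a loss in part of the cells has no scale here.

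Read separately, the dyes gave a different picture of the locus. The ratio cancels whatever the leukemic and the reference DNA of an array share, so the log2 signal of each dye, centred on its autosomal median, was also fitted over all autosomal probes; this was added after the ratios had been seen. In the Cy5 signal of the leukemic DNA, 14 of 424 probes (3.30%) passed limma with Benjamini-Hochberg adjustment, beside 0.236% of autosomal probes, and all 14 were lower in Ikzf1+/- (0.205% of autosomal probes passed in that direction). In the Cy3 signal of the non-leukemic DNA, 14 probes (3.30%) passed, beside 0.246% of autosomal probes, and again all 14 were lower on the Ikzf1+/- arrays (0.198% in that direction). The sets shared 12 probes, 85.7% of the 14 in each dye. Over all autosomes 904 probes passed in Cy5 and 942 in Cy3, and 281 passed in both dyes (0.0735% of 382487 probes). The leukemic and the reference DNA thus shifted at the same places. Over the 12 shared probes the ratio difference ran from -0.43 to 0.58, with a median of -0.016.

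The slide could be separated from genotype only in part. Each slide held 2 arrays, and 1 slide held both genotypes, with Ikzf1+/+ tumour 5 and Ikzf1+/- tumour 1. With the slide as a fixed block, which leaves that slide as the comparison, limma with Benjamini-Hochberg adjustment called 0 probes in Cy5 (28 at an unadjusted p under 0.05, 21 of them lower) and 6 in Cy3, 4 of them among the 14. All 14 probes of each dye were lower on the Ikzf1+/- array of that slide. Both arrays of that slide had entered the fit that picked these probes, so their direction there is no separate check. The labels do not state whether the reference DNA was shared among arrays.

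Within the interval, the longest run of consecutive probes low in both dyes lay near the upper end of the gene span. Probes with a difference at or below -0.5 in Cy5 and in Cy3 numbered 12 of 424 (2.83%, beside 0.0706% of autosomal probes), and 4 of them were neighbours at chr11:11668345-11669148, a stretch of 804 bp. It starts 83.3 kb into the gene span and ends 3.85 kb before its end. Over these 4 probes the Cy5 level was -0.17, -0.17, -0.22, -0.20 and -0.18 on Ikzf1+/+ arrays 1 to 5 and -0.997, -0.95, -1.12, -1.36 and -1.07 on Ikzf1+/- arrays 1 to 5. The Cy3 level was -0.27, -0.24, -0.41, -0.20 and -0.40 on Ikzf1+/+ arrays and -0.997, -0.95, -1.36, -1.04 and -1.30 on Ikzf1+/- arrays. Every Ikzf1+/- array lay below every Ikzf1+/+ array in both dyes. The mean difference was -0.91 in Cy5 and -0.82 in Cy3, of the size of the X difference of -0.91 in Cy5. The stretch was picked for these values, so they are a description with no test.

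As a ratio, the same stretch read 0.096, 0.10, 0.21, 0.00081 and 0.25 for the Ikzf1+/+ tumours, and 0.10, 0.073, 0.35, -0.16 and 0.38 for the Ikzf1+/- tumours. The genotypes overlapped fully and the mean difference was 0.019. Against the Ikzf1+/+ mean, Cy5 fell by 0.81, 0.76, 0.93, 1.17 and 0.88 in Ikzf1+/- tumours 1 to 5. Comparing only the pair of arrays on the shared slide gave -0.81 in Cy5 and -0.59 in Cy3.

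**Figure D3:**
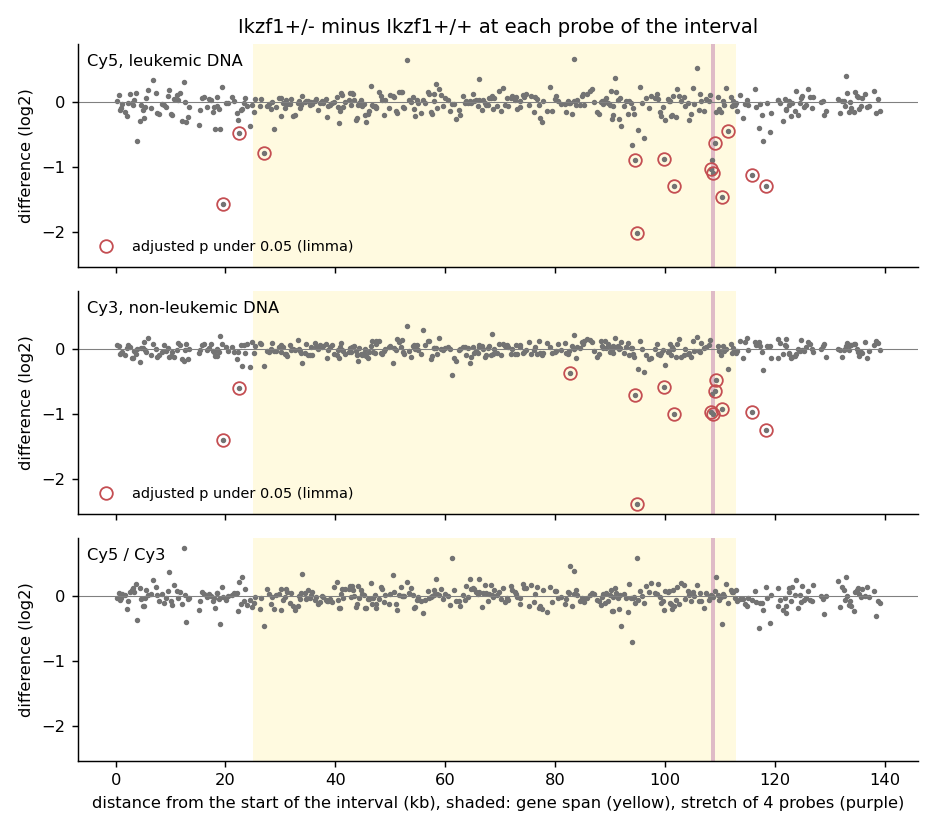
Difference between genotypes, Ikzf1+/- minus Ikzf1+/+, at each of the 424 probes for the leukemic DNA (Cy5), the non-leukemic DNA (Cy3) and their ratio, in log2, against distance from the start of the interval in kb. Circles mark the 14 probes per dye that passed limma, all below 0. In the ratio no probe passed limma. There the circled probes at 11586995 and 11670353 differed by -0.455 and -0.43. Those at 11654871, 11642755 and 11669252 differed the other way, by 0.58, 0.47 and 0.29.

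Single probes drew the edges of the stretch. The probe at chr11:11668345-11668404 differed by -1.02 in Cy5 (SE 0.10, limma adjusted p = 0.00025) and -0.96 in Cy3 (SE 0.075, adjusted p = 3.1e-06). The probe at chr11:11668706-11668765 differed by -1.09 (adjusted p = 0.0002) and -0.99 (adjusted p = 7.7e-06). The probe at chr11:11669104-11669148 differed by -0.63 (adjusted p = 0.0064) and -0.64 (adjusted p = 0.00058). Between them, the dim probe at chr11:11668530-11668589, well above background on 4 of 5 Ikzf1+/- arrays in Cy5 and 3 of 5 in Cy3, differed by -0.89 and -0.70 without passing (adjusted p = 0.086 and 0.36).

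The probes directly on either side of the stretch were not low in both dyes. The last probe before the stretch, ending at 11668200, differed by 0.12 in Cy5 and 0.14 in Cy3. The first probe after it, chr11:11669252-11669296, differed by -0.15 in Cy5 (adjusted p = 0.59) and -0.48 in Cy3 (adjusted p = 0.00044), and the one after that, at 11669716, by 0.080 and 0.045. The distance between the nearest probes outside was 1051 bp, and 1515 bp up to the second probe after the stretch. These bound the length over which consecutive probes were low.

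**Figure D4:**
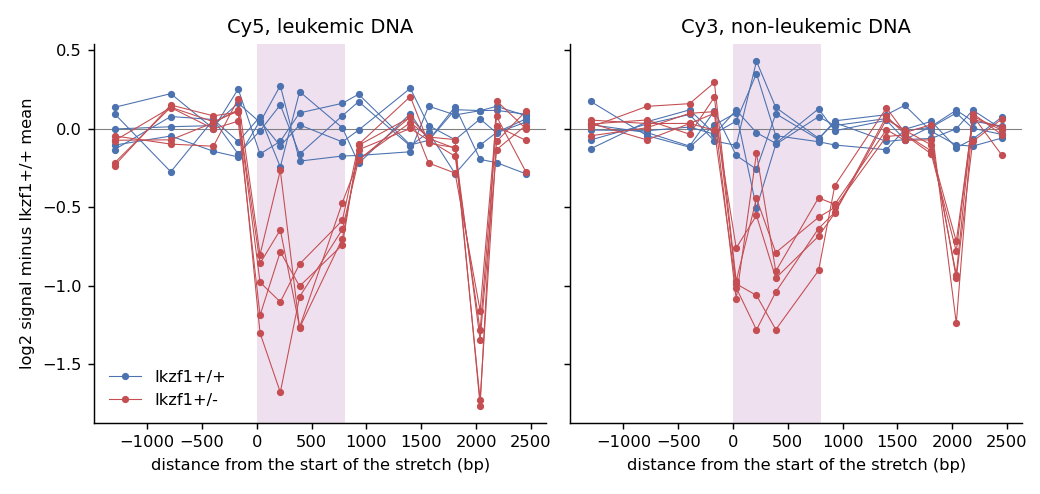
Log2 signal of single arrays minus the Ikzf1+/+ mean at the 4-probe stretch (shaded) and its neighbours, against distance in bp from the start of the stretch, for leukemic DNA (Cy5, left) and non-leukemic DNA (Cy3, right). Ikzf1+/- arrays drop over the shaded 804 bp in both dyes and again at the isolated probe at 11670353. In Cy3 the Ikzf1+/- arrays also lie lower at the first probe after the shading, at 11669252, with a mean difference of -0.48. Ikzf1+/+ arrays stay around 0.

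The other 8 low probes were 1 pair of neighbours and 6 probes whose direct neighbours were not low in both dyes. At chr11:11579530-11579588, before the gene, Cy5 was 0.19, 0.11, 0.16, 0.041 and -0.18 on Ikzf1+/+ arrays and -1.62, -1.55, -1.43, -1.69 and -1.19 on Ikzf1+/- arrays, a difference of -1.56, and Cy3 differed by -1.40. This probe was well above background on all arrays in both dyes, and its difference was larger than that of X. The pair of neighbours was the probe at 11654457 (-0.88 in Cy5 and -0.71 in Cy3) and the one at chr11:11654871-11654930. The latter measured -2.01 in Cy5 and -2.38 in Cy3, but on the Ikzf1+/- arrays it was well above background on only 4 of 5 in Cy5 and 1 of 5 in Cy3, so the size is uncertain. The remaining ones were at 11659870 (-0.87 in Cy5 and -0.59 in Cy3), 11661710 (-1.29 and -0.998), 11670353 (-1.45 and -0.92), 11675881 (-1.11 and -0.96) and 11678330 (-1.28 and -1.24, with 2 of 5 Ikzf1+/- arrays well above background in Cy3). Of the 12 low probes, 11 lay between 11654457 and 11678389. Smaller shifts that passed limma were -0.47 in Cy5 and -0.60 in Cy3 at 11582482, -0.78 in Cy5 alone at 11586995, -0.45 in Cy5 alone at 11671461 and -0.37 in Cy3 alone at 11642755. The probe at 11670353 also had the ratio lower in Ikzf1+/-, by -0.43, with -0.55 and -0.73 in tumours 4 and 5 and -0.18, -0.16 and 0.10 in tumours 1 to 3.

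Low probes in both dyes were not restricted to Ikzf1. They made up 0.718% of the 500 kb flanks (3 of 418) and 2.22% of chromosome 11 up to 22 Mb without the interval (56 of 2522), against 0.182% of chromosome 11 from 22 Mb on and 0.0457% of the other autosomes. The limit of 22 Mb was set in this single-dye step, after the ratios had been seen, so the contrast across it is a description. The share inside the interval, 2.83%, stood beside 2.22% for the surrounding chromosome end, and their difference was not tested. Probes high in both dyes, by 0.5 or more, numbered 0 in the interval and 0 on chromosome 11 up to 22 Mb, beside 0.0484% of autosomal probes. Stretches of 3 or more consecutive low probes numbered 4 on all autosomes: the one in Ikzf1, chr11:13966183-13982099, chr11:18224699-18261296 and chr15:9837346-9863731. The Ikzf1 stretch was the shortest of these 4, at 804 bp against 15917 bp to 36598 bp, in a region with many more probes per kilobase. The one at chr11:18224699 also held 4 probes, with differences of -1.04 in Cy5 and -1.05 in Cy3. So did the one on chromosome 15, with -1.01 and -0.96. The one at chr11:13966183 held 3 probes, with -0.80 and -0.76.

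Averaged over the interval, each dye was slightly lower on Ikzf1+/- arrays. The Cy5 mean was 0.11 ± 0.039 and 0.053 ± 0.025, a difference of -0.061 (exact permutation p = 0.0317, adjusted p = 0.0317 over 4 single-dye comparisons). The Cy3 mean was 0.087 ± 0.012 and 0.047 ± 0.0079, a difference of -0.039 (exact permutation p = 0.00794, adjusted p = 0.0159), with every Ikzf1+/- array below every Ikzf1+/+ array. The median over the 424 probes differed less, by -0.018 in Cy5 and -0.0081 in Cy3.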

How the data were processed

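Per the labels, 5 Ikzf1+/+ and 5 Ikzf1+/- leukemias were each hybridised once, without dye swap, after phenol-chloroform extraction and ULS labelling. The deposited scanner files give each spot's Cy5 and Cy3 intensity. Per the file headers, processed signals are background-subtracted and dye-normalised by Agilent Feature Extraction 10.7.3.1 under a protocol that names lowess, on build mm9; the submitters' processing notes give version 10.5.1.1. The deposited log10 ratios of the scanner and log2 ratios of the series matrix served to check scale and as an alternative.

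Here, control and outlier spots were left out, spots of a probe averaged, and log2 of processed Cy5 over Cy3 centred on each array's autosomal median. Single-dye values were log2 of background-subtracted signals, centred likewise. Single probes and overlapping runs of 5 probes were fitted with limma 3.58.1 in R 4.3.3 over all autosomal features with Benjamini-Hochberg adjustment, after tests on simulated data. Single values per tumour were compared by two-sided exact permutation (252 splits, smallest p 0.00794). Depth is not defined for arrays; 5 arrays per genotype limit the precision. One probe without a value in Ikzf1+/- tumour 5 was fitted on the rest. Named probes and runs were those passing limma, else the 5 probes and 3 non-overlapping runs with the largest difference in each direction and the lowest run of each tumour. The members, gene lists and comparisons were chosen with earlier results of these data known. The gene lists set for the comparison (Ikaros family, B-lineage factors, tumour suppressors) could not be scored, since the scanner columns used carry no gene names and the gene table is of another build; for that reason no sequence is shown. Alternatives covered background correction, filters, centring, run length, blocks and each tumour left out.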

Additional observations from a re-analysis of the deposited data

Results flagged for a closer look

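Over runs of 20 probes, the lowest mean of the interval was -0.107 in Ikzf1+/- tumour 5, and the gap between it and the other 4 Ikzf1+/- tumours was wide for the range of the group. It was the shallowest minimum of the 5, and about 1 in 20 groups would show such a gap by chance. The chromosome X median ratio differed by -0.793 and the chromosome Y median by 2.64 between Ikzf1+/- and Ikzf1+/+ tumours, with no overlap of the genotypes in either (two-sided exact permutation test, p = 0.00794 for each).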

How the results depend on the processing

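The comparison of interval means kept its small size but not its sign. The difference of -0.0069 became 0.047 with normexp on the median signals (exact permutation p = 0.0952) and 0.010 when centred on chromosome 11 (p = 0.333), was 0.0042 on the slide with both genotypes, and ran from -0.014 to 0.00024 with each tumour left out. Against the flanks, 0.0019 became -0.0048 with probes well above background, -0.0020 with medians and -0.014 with flanks of 2 Mb, and ran from -0.0026 to 0.0067 with each tumour left out. In single dyes, chosen after seeing the data, the interval differed by -0.061 in Cy5 (exact permutation p = 0.0317) and -0.039 in Cy3 (p = 0.00794), and against the flanks by -0.029 (p = 0.0317) and -0.027 (p = 0.00794). Counts past limma were 0 of 424 probes and 0 of 420 runs, and stayed 0 with each tumour left out. With normexp they were 4 and 5, all higher in Ikzf1+/-. With the slide as a random block 1 probe passed, lower in Ikzf1+/-. Probes numbered 14 in Cy5 alone and 14 in Cy3 alone. Runs numbered 34 in Cy5, all lower in Ikzf1+/-, and 43 in Cy3, 42 of them lower. Neighbouring runs share probes, so 1 low probe can enter several runs. The autosomal shares under normexp, under the random block and for single-dye runs are not given, so these counts have no background here. Low runs per Ikzf1+/- tumour, 0.80 on average, were 2.2 for runs of 3 probes, 6.4 at -0.2, and 0.5 to 1 with each tumour left out. The single-dye counts were 11 to 15 in Cy5 and 13 to 14 in Cy3 with each tumour left out, and 0 and 6 with the slide as a fixed block, where 1 slide holds both genotypes. The 4-probe stretch differed by -0.95 to -0.84 in Cy5 and -0.87 to -0.77 in Cy3 with each tumour left out, and by -0.59 in Cy3 on the shared slide. The causes of these changes were not tested.

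Replicate numbers did not pair the samples: deviations of same-numbered tumours correlated at -0.016 to 0.051. With the replicate block the interval difference stayed -0.0069 (two-sided exact sign-flip test, p = 0.563) and the difference against the flanks 0.0019 (p = 0.938), with 0 probes and 0 runs past limma; single-dye counts were 12 and 15. The planned fit of named-gene means was not run, since the scanner columns used carry no gene names, and normexp used median signals in place of mean signals.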
